A study of Mus musculus with 40 samples.

Results

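Immunoglobulin heavy and light chain genes were followed through large-scale rib repair in immature and mature mice. The genes were chosen by name, as every gene of the authors' filtered count table that encodes a variable (V) segment of the heavy chain (Ighv), the kappa light chain (Igkv) or the lambda light chain (Iglv), a constant region, or the joining chain Jchain. This gave 153 of the 21204 genes in that table, namely 72 Ighv, 66 Igkv and 3 Iglv genes, the 4 IgG constant genes Ighg1, Ighg2b, Ighg2c and Ighg3, 3 lambda constant genes, and Ighm, Ighd, Igha, Igkc and Jchain. In the full table of 48733 genes, 362 genes had such a name, and Ighe and Iglc4 were among those outside the filtered table. By position, 79 of the 153 genes lie on chromosome 12, 67 on chromosome 6, 6 on chromosome 16 and Jchain on chromosome 5.

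Bulk RNA sequencing was performed on total RNA of the rib cage, a composite of bone, marrow and intercostal muscle, from female wild type C57BL/6 mice with a 3 mm rib resection. The 10 groups were immature mice (7 weeks) and mature mice (over 10 months) at baseline, 0dpr, 2dpr, 5dpr and 14dpr, where dpr counts the days post-resection. Each group had 4 libraries, except the mature 5dpr group with 3, since its replicate 2 was not analysed here. The labels do not say whether libraries of a group came from separate animals, so that the p-values measure the spread between libraries, and they also describe the baseline tissue as taken after resection, whereas the study's methods place baseline before it.

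B cells build an immunoglobulin from a heavy and a light chain, each with a V segment that contributes to antigen binding and a constant region that sets the class. IgM and IgD are made by naive B cells, whereas IgG and IgA follow class switching, and plasma cells, many of which reside in bone marrow, transcribe the chosen chains at very high levels together with the J chain that joins IgM and IgA units. Because a B cell clone and its plasma cells use 1 heavy and 1 light V segment, an expanded clone can fill the reads of a single V gene.

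The 3′ ends of 6 V segments that took large parts of the reads of single libraries are shown first, since the results on V genes turn on them. Each line gives the last 60 coding bases of the germline segment in GRCm38 (GENCODE M21 transcripts), 5′ to 3′ on the coding strand, and the capitals mark the last in-frame cysteine codon, which precedes the antigen-contacting CDR3 loop. Ighv8-12 was added after its values were seen, and the other 5 had the highest mean level among V genes over all libraries.
Ighv11-2, chr12:114048241-114048300, minus strand: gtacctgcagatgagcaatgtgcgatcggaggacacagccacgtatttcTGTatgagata
Igkv14-126, chr6:67896583-67896642, plus strand: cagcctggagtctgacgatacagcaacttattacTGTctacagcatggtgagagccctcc
Ighv8-12, chr12:115647945-115648004, minus strand: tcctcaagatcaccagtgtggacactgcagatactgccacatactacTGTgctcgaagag
Igkv3-4, chr6:70672318-70672377, plus strand: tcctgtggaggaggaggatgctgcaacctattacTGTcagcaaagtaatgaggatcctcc
Ighv1-55, chr12:115208095-115208154, minus strand: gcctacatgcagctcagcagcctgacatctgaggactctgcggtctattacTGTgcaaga
Igkv5-43, chr6:69823355-69823414, minus strand: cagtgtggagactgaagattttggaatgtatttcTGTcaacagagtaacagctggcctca

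Related immunoglobulin genes can share reads, and how multi-mapped reads were handled is not given in the sources used here. In the annotated transcripts, 138 of the 153 genes had no stretch of 150 bases, the read length, in common with any other of 433 immunoglobulin genes. The other 15 shared some, and in Ighv1-71 (96.2%) and Ighv1-62-2 (88.2%) most such stretches were shared. Among the genes above, the shared part was 19.1% in Igkv5-43 and 4.17% in Ighv11-2, and 0% in Ighv1-55, Ighv8-12, Igkv14-126 and Igkv3-4. In Igkv6-20 46% of the stretches were shared, so that its level is less certain. These figures are for germline sequence, and the mutations and junctions of rearranged genes were not considered. Levels are therefore also given as sums by class, which do not depend on the split of reads between members of a class.

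Total counts ranged from 6057756 to 21537070 per library (median 9087417). The 153 genes took between 0.00588% and 0.472% of them, with the lowest share in an immature 2dpr library and the highest in a mature 0dpr library. Levels are in CPM, counts scaled to the size of each library. Muscle, osteoblast and erythroid marker genes had reads in all groups, as the tissue label says.

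At baseline, immunoglobulin transcripts were several-fold more abundant in mature than in immature mice. Of the 153 genes, 10 passed the test (adjusted p under 0.05), all of them lower in immature mice, which is 6.54% of the members against 0.226% of all 21204 genes, while 0.358% of all genes were higher. They were Ighm, Ighg2c, Igkc and Jchain, the heavy chain V gene Ighv11-2, and the 5 kappa V genes Igkv14-126, Igkv12-89, Igkv3-12, Igkv3-2 and Igkv1-110. The median log2 fold change (immature over mature) was −1.64 over the members, and −1.58 with genes absent from one group set at the smallest change that 3 counts per library allow. In bulk tissue, fewer antibody-producing cells and less immunoglobulin RNA per cell cannot be told apart. Without a single library the count ran from 2 to 17, with 2 calls without mature baseline replicate 3, 3 without mature replicate 2 or immature replicate 4 or 6, 4 without immature replicate 3, 6 without immature replicate 2, and 17 without mature replicate 4. A fit of the 8 baseline libraries alone gave 27 calls, and 4 were called with a block for the replicate number.

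Ighm encodes the constant region of IgM, the first class a B cell makes. It measured 316, 322, 194 and 283 CPM in the immature baseline libraries and 836, 1512, 1208 and 866 CPM in the mature ones. All mature libraries lay above all immature libraries, with means of 279 ± 58.9 and 1105 ± 319 CPM (SD, n = 4 each), and the log2 fold change was −1.99 (SE 0.42, edgeR adjusted p = 0.0147). The call was lost without mature replicate 2 or 3 or immature replicate 4 or 6, at log2 fold changes of −1.995 to −1.80. Ighd, the IgD constant gene of mature naive B cells, was not among the genes lower in immature mice. Its level was 27.2 ± 11.2 CPM in immature and 14.5 ± 8.40 CPM in mature mice, and the groups overlapped. IgD thus made up 8.74% of the IgM and IgD reads in immature mice (6.76 to 12.8%) and 1.42% in mature mice (0.769 to 3.05%), with no overlap.

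Igkc, the only kappa light chain constant gene, measured 164, 127, 76.1 and 62.3 CPM in immature and 527, 642, 955 and 473 CPM in mature baseline libraries. The groups were far apart, and the log2 fold change was −2.60 (SE 0.57, edgeR adjusted p = 0.0189), a call lost without mature replicate 2 or 3 or immature replicate 3, 4 or 6 (−2.69 to −2.35). The summed lambda constant genes differed less, with 27.9 ± 10.9 CPM in immature and 39.7 ± 6.99 CPM in mature mice and overlapping libraries. Of the light chain constant reads, lambda therefore took 9.91, 24.4, 20.7 and 34.4% in the immature libraries and 8.25, 6.20, 3.85 and 6.12% in the mature libraries. The lowest immature library, replicate 2, had a 95% Clopper-Pearson interval of 8.48 to 11.5%, which covers counting error only. That library is also the one in which a single kappa V gene took most of the kappa V reads, as described further on. Jchain measured 35.9, 40.1, 25.5 and 14.6 CPM in immature and 153, 161, 232 and 116 CPM in mature mice, again without overlap (log2 fold change −2.51, SE 0.61, edgeR adjusted p = 0.0437). Its call was lost without any 1 of these libraries except mature replicate 4 (−2.72 to −2.29).

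**Figure D1:**
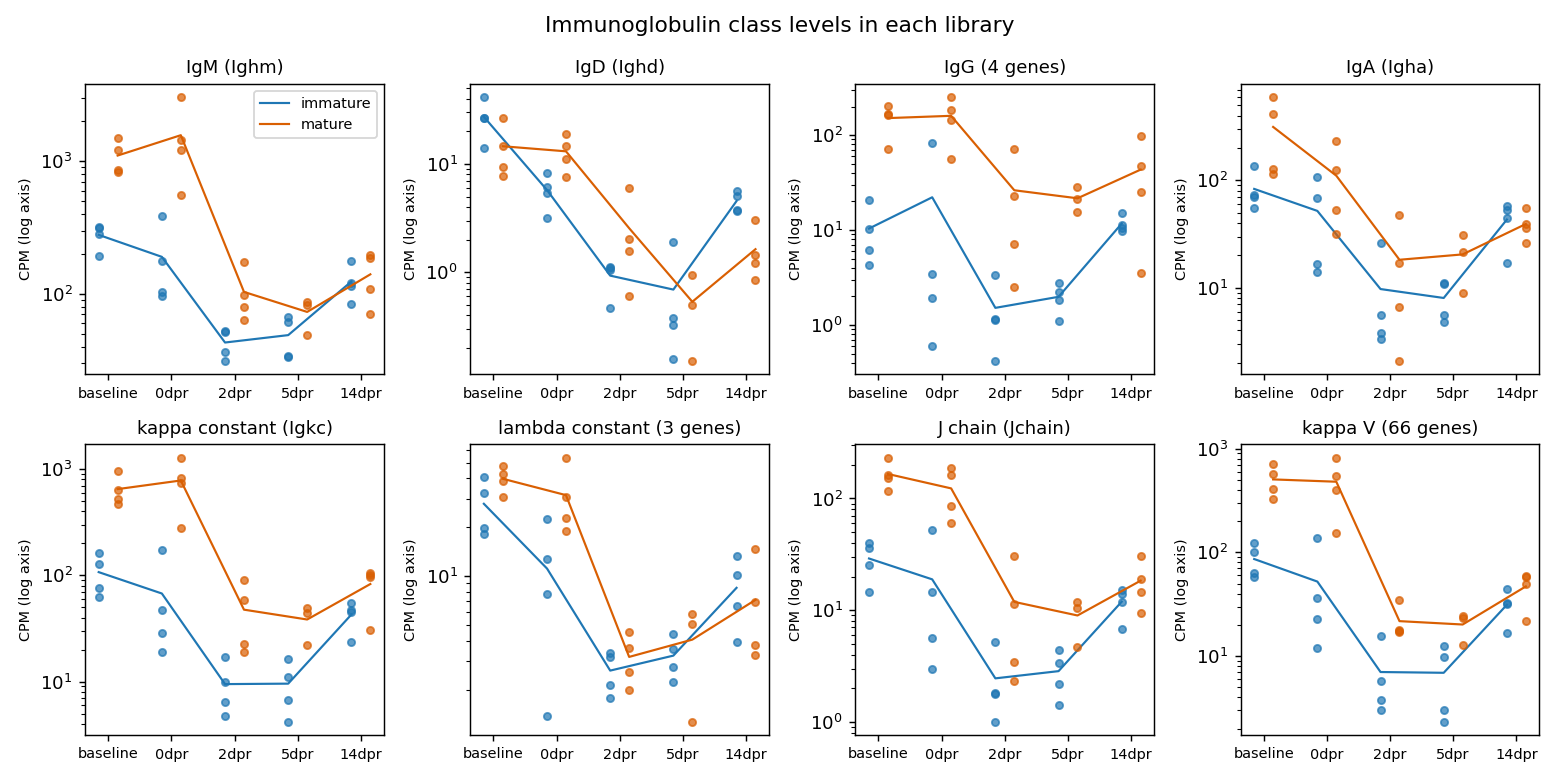
Levels of 8 immunoglobulin classes (IgM, IgD, IgG, IgA, kappa constant, lambda constant, J chain and kappa V genes) in CPM on a log axis, by stage, with immature mice in blue and mature mice in orange. Points are libraries and lines join the group means. Ighm lay at 194 to 322 CPM in immature and 836 to 1512 CPM in mature baseline libraries, and most classes were lowest at 2dpr and 5dpr at both ages.

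The switched classes differed in their subclasses. The 4 IgG constant genes summed to 20.7, 6.19, 10.3 and 4.31 CPM in the immature baseline libraries and to 162, 70.7, 204 and 167 CPM in the mature ones, a 14.6-fold ratio of the means. Igha, the IgA constant gene, measured 83.4 ± 35.4 CPM in immature and 315 ± 236 CPM in mature mice with overlapping libraries. Of the reads of switched classes, IgG took 4.37 to 22.7% in immature and 25.3 to 56.5% in mature libraries. The switched classes as a whole took overlapping shares of the heavy constant reads, 15.5 to 28.9% in immature and 10.8 to 40.2% in mature mice.

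Ighg2c, which encodes the IgG2c subclass of C57BL/6 mice, differed most of the constant genes. It had no reads in 3 immature baseline libraries and 0.908 CPM in the fourth, against 35.6, 18.8, 52.5 and 37.9 CPM in mature mice. That is 8 reads in the immature group, all in replicate 4, and 1435 in the mature group (log2 fold change −7.32, SE 1.19, edgeR adjusted p = 0.00155), and the call was kept in all 15 alternative settings. Ighg1 (0 to 6.70 CPM in immature, 11.5 to 66.1 CPM in mature) and Ighg2b (1.05 to 10.7 CPM and 32.9 to 98.9 CPM) did not overlap either, but did not pass the test. Ighg3 overlapped, with 0.574 to 9.94 CPM in immature and 0.449 to 12.7 CPM in mature mice.

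Ighg2b and Ighg2c are the most alike of the IgG genes, with 85.9% identity over 1004 aligned coding bases against 75.7 to 77.7% for the other IgG pairs. They are shown where they differ most, in a window of 60 bases on the minus strand of GRCm38 with the 26 differing bases in capitals. Neither shared a stretch of 150 bases with another immunoglobulin gene.
Ighg2c, chr12:113287449-113287508: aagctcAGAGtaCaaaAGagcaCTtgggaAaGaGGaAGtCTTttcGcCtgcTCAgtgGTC
Ighg2b, chr12:113306449-113306508: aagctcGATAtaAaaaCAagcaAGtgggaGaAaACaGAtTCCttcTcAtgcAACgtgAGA

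Summed over segments, Ighv genes were 3.72-fold and Igkv genes 5.85-fold higher in mature than in immature baseline libraries by the ratio of means, both without overlap. Ighv11-2 measured 2.74, 1.24, 1.14 and 0.383 CPM in immature and 12.6, 20.1, 162 and 34.4 CPM in mature mice. Igkv14-126 measured 5.48, 1.96, 3.06 and 3.92 CPM in immature and 29.2, 51.2, 371 and 79.6 CPM in mature mice. All mature libraries were above all immature libraries for both genes, and mature replicate 3 was the highest for both. The log2 fold change was −5.39 (SE 0.96, edgeR adjusted p = 0.00397) for Ighv11-2 and −5.20 (SE 0.92, edgeR adjusted p = 0.00389) for Igkv14-126. Without mature replicate 3 they were −4.03 and −3.88 and neither passed the test. Paired heavy and light chains of these segments are known from B-1a cells, a self-renewing B cell subset whose antibodies of this kind bind phosphatidylcholine. Igkv1-110 was also without overlap, at 1.14 to 2.49 CPM in immature and 7.96 to 22.3 CPM in mature mice (log2 fold change −2.89, edgeR adjusted p = 0.0466), and its call was lost without any 1 library except mature replicate 4 (−3.10 to −2.52). In contrast, Igkv12-89 was high in 1 library only, with 157 CPM in mature replicate 2 and at most 0.898 CPM in the other 7.

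At 0dpr, the day of resection, 16 members passed the test, all lower in immature mice, or 10.5% of the members against 0.156% of all genes, with 0.571% of all genes higher. They comprised Ighm, Igkc, Jchain, Ighg2c, Ighg3, 6 Ighv and 5 Igkv genes, and the median log2 fold change of the 153 genes was −1.98 (−1.87 with absent genes at their bound). Same-numbered libraries deviated together at this stage, and 7 members passed with the replicate number as a block. The count was 0 when the 8 libraries compared were fitted alone, and 7 in that fit with the block, of which 4 were among the 16. Leaving out immature replicate 1 gave 7 calls and replicate 3 gave 10, while 31 passed without immature replicate 2.

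Ighm measured 104, 384, 96.1 and 177 CPM in the immature 0dpr libraries and 556, 1455, 3066 and 1221 CPM in the mature ones. The groups were again separate (log2 fold change −3.05, SE 0.44, edgeR adjusted p = 0.000108). Igkc measured 29.0, 175, 18.8 and 47.3 CPM against 278, 739, 1286 and 828 CPM (log2 fold change −3.54, SE 0.59, edgeR adjusted p = 0.000876), and Jchain 2.99, 52.3, 5.64 and 14.6 CPM against 59.8, 187, 84.8 and 161 CPM (log2 fold change −2.70, SE 0.62, edgeR adjusted p = 0.0252). With the replicate block all of these 3 genes passed. In the fit of the 8 libraries with the block, Jchain passed, whereas Ighm and Igkc did not (edgeR adjusted p = 0.0669 and 0.0594). The call of Jchain was lost without immature replicate 1, 3 or 4 or mature replicate 2 or 4 (−2.61 to −2.34). Immature replicate 2 was the highest of its group for all of these genes, and without it the log2 fold changes were −3.65 for Ighm, −4.64 for Igkc and −4.0 for Jchain. It stood further apart in IgG. Its summed IgG level was 82.6 CPM, of which 66.3 CPM came from Ighg2b, whereas the other immature libraries had 0.598 to 3.48 CPM. With this library the immature IgG level overlapped the mature one of 56.3 to 253 CPM at a log2 ratio of means of −2.85, and without it the log2 ratio was −6.32. IgG took 3.48 to 43.2% of the switched reads in immature and 51.6 to 82.0% in mature libraries.

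The V genes of the 0dpr age comparison were often high in 1 mature library. In mature replicate 3, Ighv1-55 measured 251 CPM and Igkv5-43 measured 338 CPM, against 1.53 to 12.2 CPM and 0.556 to 4.55 CPM in the other mature libraries. Both passed the test (log2 fold changes −5.53 and −7.94, edgeR adjusted p = 0.0119 and 0.00274), and neither did without that library, when they stood at −2.18 and −2.72. Ighv1-55 was also lost without immature replicate 1 (−5.33), and Igkv5-43 stood at −8.94 without immature replicate 2. Neither passed with the replicate block (edgeR adjusted p = 0.0558 and 0.0674), nor in the fit of the 8 libraries with the block (0.284 and 0.325). Igkv4-91 was higher in all mature libraries, at 4.08, 48.0, 3.10 and 11.4 CPM, than in any immature library, where it reached at most 0.863 CPM, and its call held with the block. It was lost without mature replicate 2, at a log2 fold change of −4.39, and the change was −7.47 without immature replicate 2. Its heavy chain partner in phosphatidylcholine antibodies, Ighv12-3, chosen after its values were seen, measured 0.784, 17.7, 3.66 and 0.139 CPM in the same mature libraries. Replicate 2 was the highest for both, but replicate 4 was the next highest for Igkv4-91 and the lowest for Ighv12-3.

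Fewer members passed the test between the ages from 2dpr on, when they also had fewer reads. The 153 genes held 483 to 1222 reads per immature and 1396 to 4406 per mature library at 2dpr. At baseline these were 4768 to 8931 and 20460 to 44440. The part of the lower read numbers in the fewer calls was not tested. At 2dpr, Ighg3 was the only member to pass the test, or 0.654% of the members against 0.170% of all genes lower and 0.457% higher in immature mice. It was at 0 in every immature library and measured 6.11, 0, 5.55 and 2.59 CPM in mature mice, at least 11.4-fold lower in immature mice (edgeR adjusted p = 0.048). This count was 0 without any 1 of the 4 immature libraries or without mature replicate 1 or 3, 4 without mature replicate 2 and 3 without mature replicate 4. Igkc still did not overlap, at 9.84, 4.73, 6.37 and 17.0 CPM in immature and 58.6, 19.1, 90.3 and 22.4 CPM in mature libraries, without passing the test. Ighm and the summed Igkv genes did not overlap either. The IgG sum was 17.3-fold higher in mature mice by the ratio of means, with overlapping libraries. IgG took 11.1 to 23.4% of the switched reads in immature and 52.2 to 60.4% in mature libraries.

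At 5dpr no member passed edgeR's test, as no gene of the table did (0% of 21204 genes). The unadjusted p was under 0.05 for 26 of the 153 members and for 1081 of all genes. DESeq2 called 1 member, higher in immature mice. The IgG sum was nevertheless separate, at 1.11, 2.75, 2.24 and 1.82 CPM in immature and 28.3, 15.5 and 20.99 CPM in mature libraries, and so was Igkc, at 4.20 to 16.4 CPM and 22.3 to 49.0 CPM. Jchain and the summed Ighv and Igkv genes did not overlap either. At 14dpr no member passed (edgeR, against 0.00943% of all genes), with 0 calls by DESeq2, and the median log2 fold change was 0.07. edgeR's unadjusted p was under 0.05 for 22 members and for 968 of all genes. Every class then overlapped between the ages except IgD, which was the higher in immature mice, with Ighd at 3.78, 5.07, 3.69 and 5.63 CPM in immature and 0.844, 1.23, 3.01 and 1.45 CPM in mature libraries. Lambda took 12.2 to 19.5% of the light chain constant reads in immature and 3.75 to 12.7% in mature libraries at 14dpr, overlapping slightly.

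**Figure D2:**
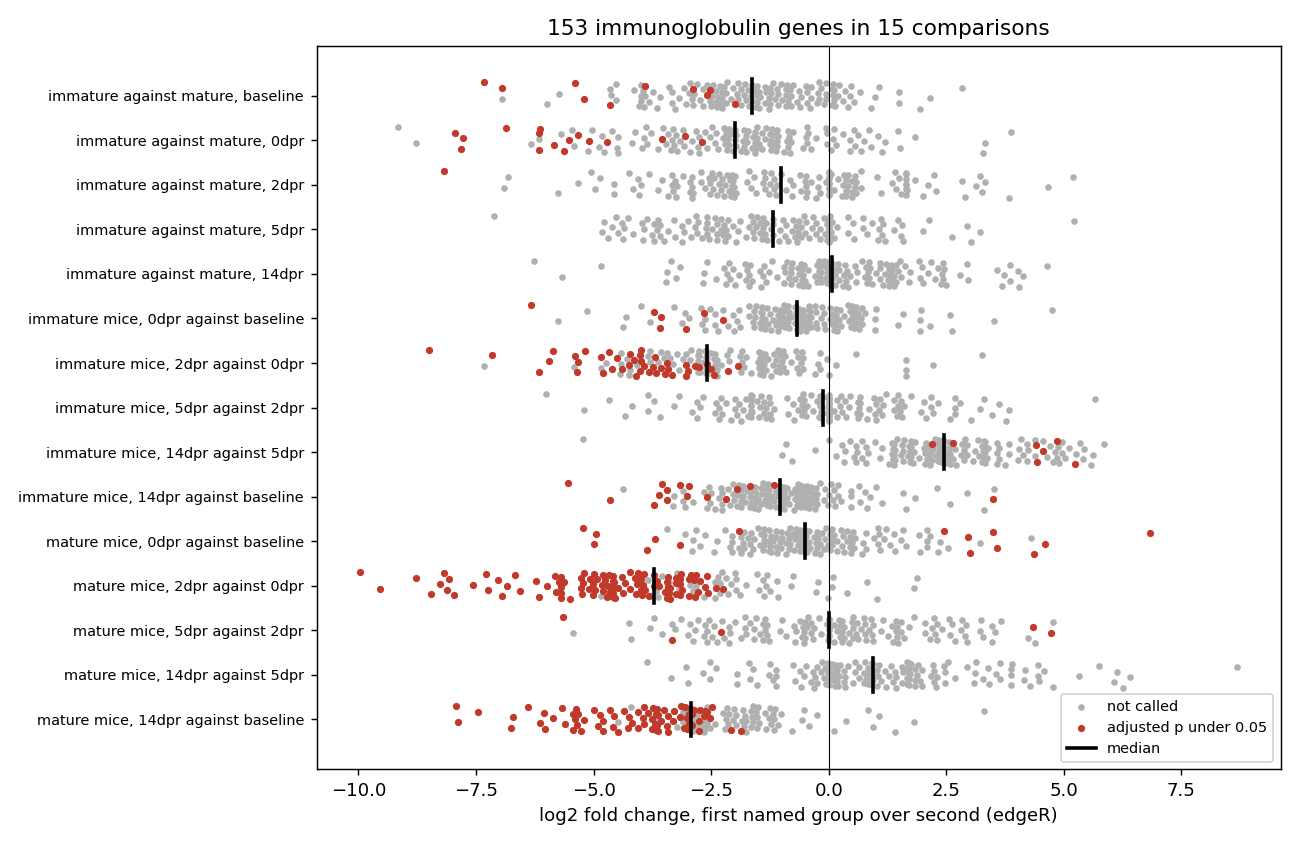
Log2 fold changes of the 153 genes in the 5 comparisons of immature with mature mice and the 10 changes between stages. Points are genes, red points passed edgeR's test (adjusted p under 0.05) and black bars are medians. The members of the change from 0dpr to 2dpr in mature mice lie lowest, with a median of −3.71 and 106 genes passing.

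From baseline to 0dpr no larger share of members than of all genes passed the test in either direction. The median log2 fold change of the 153 genes was −0.68 in immature mice, with 108 below 0. In mature mice it was −0.49, with 96 below 0, while the medians over all genes were 0 and −0.02. In immature mice 7 of 153 fell (4.58%, against 4.66% of all genes), and none rose (against 5.98%). Ighd fell from 26.7, 26.4, 14.1 and 41.5 CPM to 5.38, 8.26, 3.19 and 6.12 CPM, with no overlap (log2 fold change −2.25, SE 0.51, edgeR adjusted p = 0.00574). The lambda V gene Iglv3 fell from 3.40 to 9.71 CPM to 0.273 to 0.974 CPM (log2 fold change −3.56, edgeR adjusted p = 0.00444), and Ighv10-1 and Igkv6-15 fell likewise (−3.72 and −3.04, edgeR adjusted p = 0.00871 and 0.012), the latter not without baseline replicate 3 (−2.37) or 0dpr replicate 3 (−2.85), and at −3.64 without 0dpr replicate 4. Of 12 B cell genes 3 fell in the same comparison, among them Cr2 (log2 fold change −2.63) and Fcer2a (−2.43), both receptors of mature B cells. The count was 3 without immature 0dpr replicate 3, 14 without immature 0dpr replicate 2 and 2 in a fit of the 8 libraries alone.

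In mature mice 8 members rose (5.23%, against 11.9% of all genes) and 7 fell (4.58%, against 10.6%) from baseline to 0dpr. The members that rose were Ighg3, 4 Ighv and 3 Igkv genes, and those that fell were 2 Ighv and 5 Igkv genes. Igkv4-91 rose from 0.112 to 1.58 CPM to 3.10 to 48.0 CPM (log2 fold change 4.38, SE 0.98, edgeR adjusted p = 0.00147, and 2.90 without 0dpr replicate 2). Igkv9-120 fell from 20.96, 35.7, 3.75 and 1.80 CPM to 0.314, 0.749, 0.665 and 0.139 CPM (log2 fold change −4.99, edgeR adjusted p = 0.000586, and −4.17 without baseline replicate 2). Igkv5-43 rose with a log2 fold change of 3.50 (edgeR adjusted p = 0.0159), but its change was −1.69 without mature 0dpr replicate 3, and it did not pass without mature baseline replicate 2 (3.17) or 3 (3.26). The count of 15 was 9 without mature baseline replicate 2, 9 with DESeq2 and 8 with the replicate block.

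Of the 10 changes between stages, the fall from 0dpr to 2dpr in mature mice had the largest median. In immature mice 43 members fell (28.1%, against 22.2% of all genes), and in mature mice 106 fell (69.3%, against 24.9%), while none rose at either age (against 21.8% of all genes in immature and 22.7% in mature mice). The median log2 fold change was −2.59 in immature and −3.71 in mature mice, or −1.50 and −3.25 with absent genes at their bound, since 39 members were absent from 1 of the 2 immature groups. The immature count was 15 without immature 0dpr replicate 2 and 28 when the 8 libraries were fitted alone. The calls in immature mice included Ighm, Ighd, Igha, Igkc, Jchain, 2 of 3 lambda constant genes, 16 of 72 Ighv and 18 of 66 Igkv genes, and 1 of 4 IgG genes, Ighg2b. Those in mature mice included the same single-gene classes, all 3 lambda constant genes, 44 Ighv and 49 Igkv genes, and all IgG genes but Ighg1.

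Ighm fell to 51.6, 31.2, 36.6 and 52.3 CPM in immature mice, below all 0dpr libraries (log2 fold change −2.15, SE 0.43, edgeR adjusted p = 9.5e-05), and to 97.6, 64.0, 173 and 79.1 CPM in mature mice (−3.93, SE 0.46, edgeR adjusted p = 6.61e-09). Igkc fell 7.13-fold in immature and 16.4-fold in mature mice by the ratio of means (log2 fold changes −2.84, SE 0.60, and −4.05, SE 0.61, edgeR adjusted p = 0.000215 and 9.29e-07). Jchain fell by 2.98 (SE 0.72) and 3.42 (SE 0.65) on the log2 scale (edgeR adjusted p = 0.000965 and 3.69e-05), and in immature mice it did not pass without 0dpr replicate 2 (−1.66) and stood at −3.64 without 2dpr replicate 4, while in mature mice it stood at −4.45 without 2dpr replicate 3. Without immature 0dpr replicate 2 the immature changes of Ighm and Igkc were −1.52 and −1.71, and both passed. The fall was thus larger in mature mice for each of the 3, but the difference between the ages did not pass the test. For Ighm the interaction was 1.78 on the log2 scale (SE 0.58, unadjusted p = 0.00434, edgeR adjusted p = 0.252), and for Igkc 1.21 (edgeR adjusted p = 0.572). No member passed edgeR's interaction test (against 0.0613% of all genes), and DESeq2 called 3. edgeR's unadjusted p was under 0.05 for 16 of the 153 members and for 2382 of the 21204 genes.

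Igha fell by 2.44 on the log2 scale in immature mice (SE 0.77, edgeR adjusted p = 0.00932) and by 2.64 in mature mice (edgeR adjusted p = 0.00361), although libraries overlapped, with immature 2dpr replicate 4 at 26.1 CPM against 3.35 to 5.63 CPM in the others. Without immature 0dpr replicate 2 its change in immature mice was −1.76 and did not pass, and without 2dpr replicate 4 it was −3.62. In mature mice it was −1.95 without 0dpr replicate 4 and −3.71 without 2dpr replicate 3. Ighg2b in immature mice fell by 4.67 (edgeR adjusted p = 0.00286), and this rested on 0dpr replicate 2, without which the change was −0.84 and did not pass, while it was −5.55 without 2dpr replicate 4. For the IgG sum in immature mice the log2 ratio of means was −3.87 with that library and −0.40 without it. In mature mice Ighg2c fell by 3.98, Ighg3 by 3.37 and Ighg2b by 2.57 (edgeR adjusted p = 0.000241, 0.00359 and 0.0326), whereas Ighg1, at −0.76 (edgeR adjusted p = 0.57), did not pass. The call of Ighg3 was lost without mature 0dpr replicate 4 (−2.08), and that of Ighg2b without mature 0dpr replicate 2 or 4 or mature 2dpr replicate 1, 2 or 4 (−2.60 to −2.17). Without mature 2dpr replicate 3, Ighg2c stood at −4.82 and Ighg2b at −3.73.

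Among V genes, Ighv1-53 had no reads in the immature 2dpr libraries after 0.182 to 16.2 CPM at 0dpr, at least a 14.0-fold fall (edgeR adjusted p = 0.00023). The bound rested on 0dpr replicate 2, without which it was 1.40-fold. Ighv2-9-1 had none in the mature 2dpr libraries, at least a 49.5-fold fall (edgeR adjusted p = 2.83e-06), and at least 11.1-fold without 0dpr replicate 4. Igkv14-126 fell by 4.01 in immature and 4.59 in mature mice on the log2 scale, and did not pass in immature mice without 0dpr replicate 2 (−2.27). It stood at −4.93 without immature 2dpr replicate 3 and at −5.33 without mature 2dpr replicate 4. In the mature 2dpr group, 9 Ighv and 7 Igkv genes had reads in replicate 3 and 14 and 19 in replicate 2, against 42 or 43 Ighv and 39 or 43 Igkv genes in replicates 1 and 4.

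From 2dpr to 5dpr the members stayed low. In immature mice no member passed edgeR's test (against 8.05% of all genes), and DESeq2 called 4. edgeR's unadjusted p was under 0.05 for 6 of the 153 members and for 4211 of the 21204 genes. In mature mice 2 rose (1.31%, against 8.16%) and 3 fell (1.96%, against 6.38%), all at low levels, among them Ighd (log2 fold change −2.29, edgeR adjusted p = 0.0208), which was lost without mature 2dpr replicate 3 (−1.54) or mature 5dpr replicate 3 or 4 (−1.77 and −2.30) and stood at −2.96 without mature 5dpr replicate 1. This count of 5 was 0 without mature 2dpr replicate 3, 2 without mature 5dpr replicate 1 or 3, 1 without mature 5dpr replicate 4, 2 with the block and 0 in a fit of the 7 libraries alone. Ighm measured 33.8, 60.9, 33.6 and 67.0 CPM in immature and 87.4, 49.3 and 82.4 CPM in mature 5dpr libraries.

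By 14dpr immunoglobulin transcripts had recovered in part in immature mice, whereas no member passed the test for a rise from 5dpr in mature mice. In immature mice 7 members rose from 5dpr (4.58%, against 1.73% of all genes), and 147 of the 153 fold changes were above 0, with a median of 2.44 (1.59 with absent genes at their bound). Ighd rose from 0.159, 0.376, 0.327 and 1.91 CPM to 3.78 to 5.63 CPM (log2 fold change 2.64, SE 0.61, edgeR adjusted p = 0.00849), and Igkc from 6.66, 16.4, 4.20 and 11.02 CPM to 23.5, 55.0, 45.1 and 47.6 CPM (2.19, SE 0.60, edgeR adjusted p = 0.0324). Ighd was lost without 5dpr replicate 4 (2.30) and stood at 3.86 without 5dpr replicate 5, and Igkc without 14dpr replicate 2, 3 or 4 or 5dpr replicate 2, 4 or 5 (1.90 to 2.28). The other 5 were V genes, Ighv1-18, Ighv1-64, Ighv1-19, Igkv9-120 and Igkv1-135, named after their values were seen. The sums of IgM, IgG and IgA were also higher at 14dpr without overlap, by 2.54-, 5.91- and 5.38-fold. The count of 7 was 31 in a fit of the 8 libraries alone, 19 with DESeq2 and 3 with the block, and it was 2, 4 and 3 without immature 14dpr replicate 2, 3 and 4 and 1, 2 and 0 without immature 5dpr replicate 2, 3 and 4. In mature mice no member passed edgeR's test from 5dpr to 14dpr (against 4.18% of all genes), and DESeq2 called 5. edgeR's unadjusted p was under 0.05 for 28 of the 153 members and for 3905 of the 21204 genes. Fold changes were above 0 for 111 members, with a median of 0.94, but the libraries of every class overlapped.

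Compared with baseline, the mature mice remained much lower at 14dpr. Of the members 78 were lower (51%, against 16.4% of all genes) and none was higher (against 17.1%), with a median log2 fold change of −2.93 (−2.87 with absent genes at their bound). Ighm measured 70.4, 186, 108 and 196 CPM at 14dpr, 7.88-fold below baseline (log2 fold change −2.98, SE 0.44, edgeR adjusted p = 1.53e-06). Igkc measured 30.6, 101, 105 and 95.9 CPM (−2.97, SE 0.58, edgeR adjusted p = 0.000104) and Jchain 9.52, 30.3, 19.2 and 14.5 CPM (−3.17, SE 0.63, edgeR adjusted p = 0.000143). Ighd and Igha were lower by 3.14 and 3.01 on the log2 scale (edgeR adjusted p = 2.96e-05 and 0.00158). None of the 4 IgG genes passed, although all were below 0, with log2 fold changes of −2.59 for Ighg1, −1.76 for Ighg2b, −1.16 for Ighg2c and −2.53 for Ighg3 (edgeR adjusted p from 0.0508 to 0.269). Their sum was 3.49-fold below baseline by the ratio of means, with overlapping libraries. Ighv11-2 and Igkv14-126 were lower by 6.05 and 5.67 (edgeR adjusted p = 1.26e-05 and 1.27e-05), by 4.69 and 4.35 without baseline replicate 3, and by 6.77 and 6.35 without 14dpr replicate 1. The V genes with the largest changes, Igkv4-50, Igkv3-12 and Ighv1-58, measured at most 0.334 CPM in any mature 14dpr library. Igkv4-50 and Ighv1-58 had been high in baseline replicate 1 alone, at 10.8 and 14.3 CPM against at most 0.419 and 1.18 CPM in the others.

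In immature mice 15 members were lower at 14dpr than at baseline (9.80%, against 15.1% of all genes) and 1 was higher (0.654%, against 16.4%). Ighm was lower by 1.17 (SE 0.41, edgeR adjusted p = 0.0283) and Ighd by 2.58 (SE 0.52, edgeR adjusted p = 0.000171) on the log2 scale. The call of Ighm was lost without baseline replicate 2 or 3 or 14dpr replicate 1, 3 or 4 (−1.16 to −1.02). Iglc2, Iglc3 and Iglv3 were lower too (−1.96, −1.67 and −2.18), with Iglc2 lost without any 1 of 7 libraries (all but baseline replicate 4, −2.14 to −1.75) and Iglc3 without baseline replicate 3, 4 or 6 or 14dpr replicate 1 or 4 (−1.65 to −1.33), as were 4 Ighv and 5 Igkv genes. The member that was higher was Ighg2c, at 1.83, 7.20, 0.326 and 0.744 CPM after 0, 0, 0.908 and 0 CPM, the only reads at baseline being in replicate 4 (log2 fold change 3.51, SE 1.32, edgeR adjusted p = 0.0401), and this call was lost without immature 14dpr replicate 2 (2.08) or baseline replicate 2, 3 or 6 (3.06 to 3.13), under robust dispersions and with the block. Ighg3 was lower (−3.44, edgeR adjusted p = 0.0291), but not without baseline replicate 2 (−1.96) or 14dpr replicate 1, 2 or 3 (−3.64 to −3.05), and stood at −4.42 without 14dpr replicate 4. The count of 16 was 10 without immature baseline replicate 2 or 14dpr replicate 1, 9 without baseline replicate 3, and 40 in a fit of the 8 libraries alone. The difference between the ages in this change did not pass for any member (edgeR, against 0.0472% of all genes, and 0 by DESeq2). edgeR's unadjusted p for this difference was under 0.05 for 36 of the 153 members and for 1693 of the 21204 genes. The difference was 1.81 for Ighm (edgeR adjusted p = 0.342) and 4.66 for Ighg2c (edgeR adjusted p = 0.359).

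The breadth of V gene use varied between libraries within a group. It is given as the effective number of V genes, the inverse of the summed squared read shares, which equals 1 when a single gene takes all reads. At baseline the effective number of Ighv genes was 4.41, 33.3, 32.5 and 27.8 in the immature libraries and 25.5, 7.20, 5.64 and 12.9 in the mature libraries. For Igkv it was 3.30, 18.5, 27.3 and 32.9 in immature and 25.6, 8.53, 3.55 and 9.87 in mature libraries. Low values were thus found at both ages, in immature replicate 2 and in mature replicates 2 and 3, and the groups overlapped. Low values did not follow the number of reads alone, as mature 0dpr replicate 3 had an effective number of 3.67 on 5863 Ighv reads and immature 14dpr replicate 1 had 21.4 on 109.

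**Figure D3:**
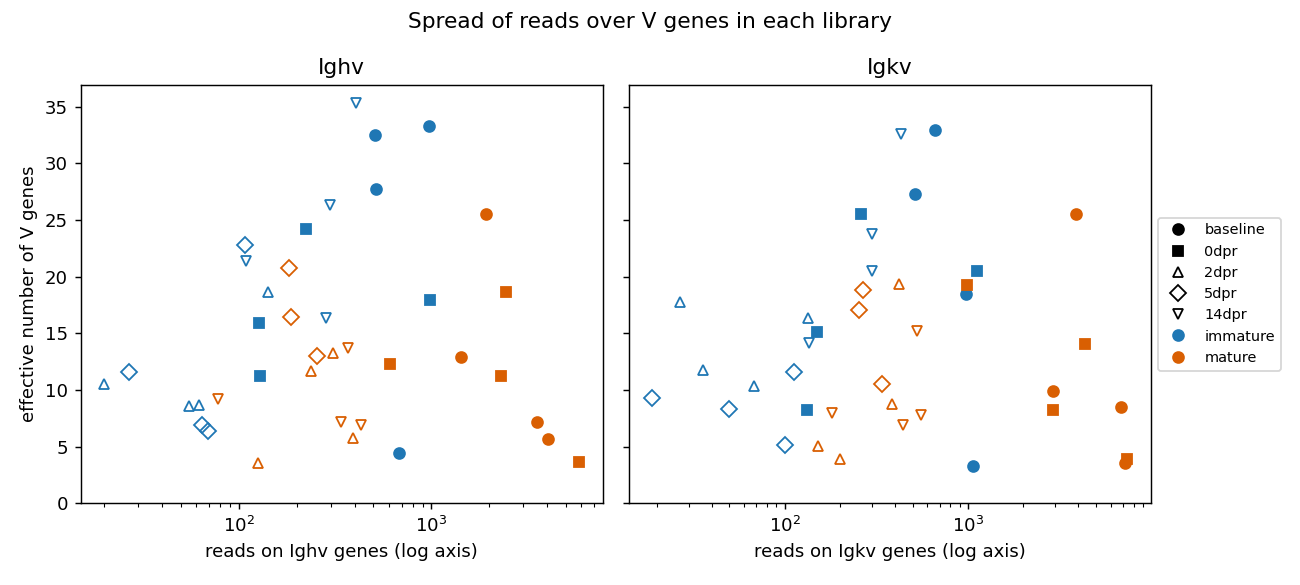
Effective number of V genes (vertical axis) against the number of reads assigned to V genes (log horizontal axis) in each of 39 libraries, for Ighv and Igkv, with immature mice in blue and mature mice in orange. Immature baseline replicate 2 lies at 4.41 for Ighv, below the other immature baseline libraries at 27.8 to 33.3.

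Libraries with a low effective number were mostly led by different genes. In immature baseline replicate 2, Ighv8-12 took 46.5% of the Ighv reads and Igkv3-4 54.2% of the Igkv reads. In mature baseline replicate 2 the leading genes were Ighv1-55 with 29.5% and Igkv12-89 with 27.4%. In mature 0dpr replicate 3, Ighv1-55 (38.7%) and Ighv14-4 (31.1%) led among heavy chain genes and Igkv5-43 (41.3%) and Igkv6-20 (23.5%) among kappa genes, so that 2 genes took most of each. Ighv14-4 and Igkv6-20 also led in mature 14dpr replicate 4, with 33.5% and 31.0%. Over the 39 libraries, 19 different Ighv and 17 different Igkv genes were the largest of their kind in at least 1 library. The pairs were read off these bulk libraries, and which heavy and light chains share a cell was not measured.

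Ighv11-2 and Igkv14-126 led in more libraries than any other V gene of their kind. Ighv11-2 was the largest Ighv gene in 10 libraries, 6 of them mature, and Igkv14-126 the largest Igkv gene in 14, 9 of them mature, and both led in 7 libraries. Ighv11-2 was tied with Ighv8-8 in immature 0dpr replicate 1 and with Ighv8-12 in mature 14dpr replicate 1. Igkv14-126 was also tied for the lead in immature 0dpr replicate 4 and 2dpr replicate 2, which were counted for other genes. Some leads rested on few reads, as with 4 of 19 for Igkv14-126 in immature 5dpr replicate 2. The next were Ighv1-26 in 4 and Igkv1-117 in 5 libraries. At baseline Ighv11-2 took 0.780 to 3.54% of the Ighv reads in immature and 6.23 to 40.4% in mature libraries. Igkv14-126 took 1.94 to 6.18% of the Igkv reads in immature and 7.19 to 52.2% in mature libraries. At baseline neither share overlapped between the ages, and both were highest in mature replicate 3, followed by mature replicate 4 with 21.5% and 24.4%. After resection the shares overlapped at every stage. The mean share of Ighv11-2 was 11.4% in immature and 8.90% in mature mice at 0dpr and 12.2% and 7.20% at 5dpr, and that of Igkv14-126 was 11.9% and 13.0% at 0dpr and 18.9% and 8.60% at 5dpr. At 2dpr and 14dpr the mature means were the higher. They were 8.2% against 7.3% and 6.1% against 3.5% for Ighv11-2, and 11.5% against 7.2% and 8.7% against 5.1% for Igkv14-126. Reads were few, with 1 to 15 on Ighv11-2 and 4 to 23 on Igkv14-126 in the immature 5dpr libraries.

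**Figure D4:**
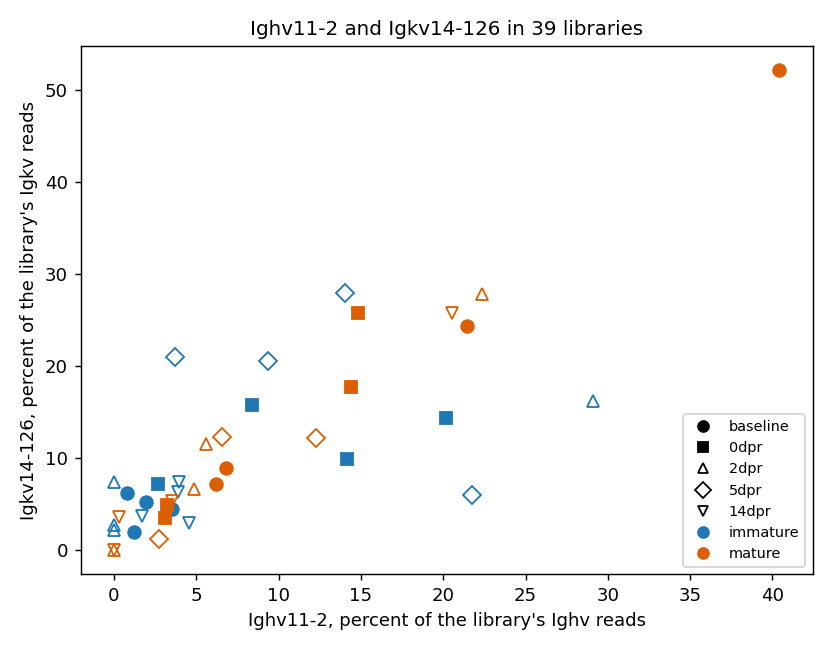
Share of Ighv reads from Ighv11-2 (horizontal axis, percent) against the share of Igkv reads from Igkv14-126 (vertical axis, percent) in 39 libraries, with immature mice in blue and mature mice in orange. The point farthest to the upper right is mature baseline replicate 3 at 40.4% and 52.2%.

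Listed genes of B cells, and of plasma cells and antibody secretion, passed no test between the ages at baseline or at 0dpr. Of 12 B cell genes, such as Ms4a1 and Cr2, none passed edgeR's test, with median log2 fold changes of 0.34 and −0.47. Their summed level at baseline was 246 to 435 CPM in immature and 164 to 418 CPM in mature libraries. None of 10 B cell precursor genes passed (medians 0.31 and 0.27), nor did any of 14 plasma cell and antibody secretion genes (−0.28 and −0.11). The summed level of these 14 genes at baseline was nevertheless separate, at 754 to 800 CPM in immature and 888 to 1014 CPM in mature libraries. At 0dpr it overlapped, at 606 to 767 CPM and 674 to 909 CPM. At 2dpr, when Ighm, Igkc and Jchain had fallen, the sum was 966 to 1017 CPM in immature and 849.5 to 1065 CPM in mature libraries. It thus did not follow the immunoglobulin genes and does not measure the number of plasma cells. Of 9 Fc and immunoglobulin receptor genes, 1 passed at 0dpr, Fcgr4, which encodes a receptor for IgG2 classes and was lower in immature mice (log2 fold change −2.33, SE 0.45, edgeR adjusted p = 0.00429). Of the lists for other cells, none of the 8 T cell, 8 erythroid and 10 muscle genes passed between the ages at these stages.

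The B cell genes did fall together with the immunoglobulin genes between 0dpr and 2dpr, 10 of 12 in immature and 11 of 12 in mature mice, with medians of −1.97 and −3.16. Their summed level went from 134 to 267 CPM down to 81.6 to 105 CPM in immature mice and from 109 to 403 CPM down to 61.6 to 82.0 CPM in mature mice, and none of the 12 was at 0 in a whole group. Fcmr, the IgM receptor, fell by 2.11 and 3.49 on the log2 scale. Of the 14 plasma cell and secretion genes 7 rose at each age, while 4 fell in immature and 5 in mature mice. The medians over the list were above 0, at 0.46 and 0.47, so that it did not fall as a set. Mzb1 and Pou2af1, which act in immunoglobulin assembly and transcription, were among those that fell (−2.71 and −2.92 in immature, −3.00 and −3.76 in mature mice), whereas Sdc1, which stromal cells also express, rose by 1.32 and 1.42. Of the 9 receptor genes 5 rose at each age, among them Fcgr4 (4.42 and 2.30) and Fcgr2b (2.83 and 3.19), while 2 fell in immature and 3 in mature mice, and Fcgrt, the neonatal IgG receptor, was at 0.03 and −0.01. All 6 macrophage marker genes rose as well, with medians of 2.45 and 2.87, from a summed level of 384 to 567 CPM at 0dpr to 2284 to 3110 CPM at 2dpr in immature and from 405 to 518 CPM to 2758 to 3073 CPM in mature mice, and their part in the receptor values was not tested. Other tissue components moved at the same time, as 7 of 8 erythroid genes in immature and 8 of 8 in mature mice fell, and all 10 muscle genes fell at both ages. The summed muscle level went from 54173 to 113201 CPM down to 10875 to 16124 CPM in immature mice and from 60403 to 128178 CPM down to 7824 to 16773 CPM in mature mice, and the summed erythroid level from 3358 to 17430 CPM down to 1932 to 3978 CPM and from 11901 to 24103 CPM down to 1055 to 3850 CPM. The part of this shift in tissue makeup in the fall of the immunoglobulin genes was not tested.

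By 14dpr 6 of the 12 B cell genes had risen from 5dpr in immature mice, among them Ms4a1 (2.81) and Cr2 (3.03), against 2 of 12 in mature mice, a difference between the ages that was not tested. Relative to baseline, 6 B cell genes were lower and 1 higher at 14dpr in immature mice, and 10 lower and 1 higher in mature mice. All 8 erythroid genes were below baseline at both ages at 14dpr, with summed levels of 2118 to 6081 CPM in immature and 459 to 3287 CPM in mature mice after 12378 to 19894 and 15185 to 22227 CPM, and their part in the lower immunoglobulin levels was not tested.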

How the data were processed

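Members and gene lists were chosen with earlier results of these data known. According to the labels and the study's methods, total RNA libraries (TruSeq stranded, NovaSeq, 150 bp paired-end) were sequenced on separate runs, which are not assigned to libraries. The authors mapped reads to GRCm38 with STAR 2.5.2a, and their processing notes also name DESeq2, edgeR and limma. The strand setting, the annotation release and the handling of multi-mapped reads are not given in the sources used here, and the rule of the authors' filter was not found. The authors deposited raw counts per gene for 48733 genes and for 21204 filtered genes, with identical counts for the latter, and a normalized signal that equals CPM with TMM factors (largest relative difference 4.991e-15), used here only as a check and for gene names.

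Counts of all 21204 genes in 39 libraries were fitted with edgeR 4.0.16 (TMM factors, quasi-likelihood test, 1 coefficient per group) in R 4.3.3, with Benjamini-Hochberg adjustment over all genes and a threshold of 0.05. The age comparisons were made at 5 stages, the stage comparisons were 10, and the interactions of age with stage were 2. CPM values are TMM-normalized. Class sums, read shares and effective numbers are descriptions without a test. For a lower bound, a gene at 0 in all libraries of a group was set at 3 counts per library. Sequences, positions and stretches of 150 bases were read from GENCODE M21 transcripts with Python 3.11.15 and Biopython 1.88. The read sharing was counted on exact matches only.

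Genes were named if they encode a constant region or the J chain, if they were among the 5 V genes with the highest mean CPM, or if they passed the test with a mean of at least 1 CPM, no overlap between the groups and one of the largest fold changes (5 per direction between ages, 3 between stages). Others are given where a call is counted or a library led by them is described. Alternatives were DESeq2 1.42.0, RLE scaling, robust dispersions, other filters, only the libraries compared, a replicate block and each library left out. They were tallied for the members only, so that their counts have no share over all genes beside them. The block in the 0dpr fit of only the libraries compared was added after seeing the data. Over 154 pairs of libraries with the same number, deviations from the group means had a mean correlation of 0.00847. They were above 0.1 in all 4 pairs only for the 0dpr age comparison (0.109 to 0.207), where fits with a block for the number are therefore also given. The main fit had no block, so that its 0dpr calls and p-values are unpaired. No 2 libraries of a group agreed within counting noise. The fit was tested on simulated counts for the baseline age comparison, in which 200 genes with a mean above 1 CPM were changed. It recovered 64% of the 2-fold, 86% of the 4-fold, 92% of the 8-fold and 98% of the 16-fold changes, with 8 false calls. Changes in genes at lower levels were not covered. The counts were drawn from the kind of model that was fitted, with the same mean in all groups apart from the set changes. Genes that differ between stages or are high in a single library were therefore not covered either. Intervals and the floor of 3 counts cover counting error only.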

Additional observations from a re-analysis of the deposited data

Results flagged for a closer look

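In 126 sets of 4 libraries (classes and V gene shares by group), 1 library stood apart from the other 3 in 9 sets by Dixon's criterion at the 95% level, and chance alone gives about 1 set in 20. IgG summed to 82.6 CPM in immature 0dpr replicate 2 against 0.598 to 3.48 CPM in the others of that group. In immature baseline replicate 2 the largest Ighv gene took 46.5% of the Ighv reads, against 7.46 to 10.7% in the other libraries, and the largest Igkv gene took 54.2% of the Igkv reads, against 6.78 to 13.9%. Igha measured 26.1 CPM in immature 2dpr replicate 4 against 3.35 to 5.63 CPM, and Ighd measured 0.465 CPM in the same library against 1.05 to 1.13 CPM. Ighd was also apart in immature 5dpr replicate 5, at 1.91 CPM against 0.159 to 0.376 CPM. The lambda V genes summed to 1.35 CPM in immature 2dpr replicate 2 against 2.09 to 2.18 CPM. In mature mice, Igkc measured 30.6 CPM in 14dpr replicate 1 against 95.9 to 105 CPM, and the Igkv genes summed to 34.7 CPM in 2dpr replicate 1 against 16.9 to 17.9 CPM.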

How the results depend on the processing

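Depth limits single V genes most, since the 153 genes held only 377 to 1406 reads per library in immature 5dpr mice, and with 3 or 4 libraries a group 1 library can decide a call. Counts of members that passed moved over 1.5 times as follows, and the cause was not tested. With the replicate number as a block they were 4 for the age comparison at baseline, 7 at 0dpr and 0 at 2dpr, and 8, 2 and 3 for mature 0dpr against baseline, mature 5dpr against 2dpr and immature 14dpr against 5dpr; the block moved no other count by as much, and outside the 0dpr age comparison same numbers did not pair the libraries. With only the libraries compared they were 27, 0, 0 and 1 between the ages at baseline, 0dpr, 2dpr and 5dpr, 2, 28, 31 and 40 for immature 0dpr against baseline, 2dpr against 0dpr, 14dpr against 5dpr and 14dpr against baseline, 0 and 3 for mature 5dpr against 2dpr and 14dpr against 5dpr, and 1 for the interaction at 14dpr. The 0dpr age comparison gave 7 with only those libraries and the block. The 2dpr age comparison gave 3 with RLE scaling, with filterByExpr on the full table and with all genes of at least 1 count, and 0 with robust dispersions. All genes of at least 1 count also gave 1 for immature 5dpr against 2dpr and 1 for the interaction at 2dpr. DESeq2 gave 7 and 1 between the ages at 2dpr and 5dpr, 9 and 5 for mature 0dpr against baseline and 14dpr against 5dpr, 4 and 19 for immature 5dpr against 2dpr and 14dpr against 5dpr, and 3 for the interaction at 2dpr.

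Leaving out 1 library gave 2 to 17, 7 to 31, 0 to 4, 0 and 0 calls between the ages from baseline to 14dpr. In immature mice it gave 3 to 14 for 0dpr against baseline, 15 to 53 for 2dpr against 0dpr, 0 to 1 for 5dpr against 2dpr, 0 to 7 for 14dpr against 5dpr and 9 to 15 for 14dpr against baseline. In mature mice these were 9 to 18, 88 to 106, 0 to 6, 0 to 1 and 58 to 80, and for the interactions 0 and 0 to 1. The log2 ratio of IgG ran from −6.32 to −2.45 between the ages at 0dpr and from −4.62 to −0.40 for immature 2dpr against 0dpr, with −6.32 and −0.40 without immature 0dpr replicate 2. Igkv5-43 in mature 0dpr against baseline ran from −1.69 without mature 0dpr replicate 3 to 4.70. Of 1309 alternatives for 87 results on single genes, 175 lost the call and this 1 changed direction. Of 623 alternatives for 63 class sums, 2 moved by more than the spread, and 10 others changed sign around a ratio close to 1.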
